A study of Rattus norvegicus with 100 samples.

Results

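The subject of this report is how the effect of ethinyl estradiol (EE) on uterine gene expression changed between 4 and 8 h. It was taken as the EE-minus-control difference at 8 h minus the same difference at 4 h, on the log2 scale, and is called the change of the effect below. The arrays were chosen by their titles, which gave 20 of the 100 arrays of the study. They were 5 of EE-treated uterus at 4 h, 5 of control uterus at 4 h, 5 of EE-treated uterus at 8 h and 5 of control uterus at 8 h. All came from immature female rats in the OECD uterotrophic assay, a regulatory test that reads estrogen activity from growth of the juvenile uterus. EE is a synthetic estrogen, and EE treatment is the labelled difference between the groups of 1 time. The whole study profiled 70 uterus arrays over 7 times and 30 pituitary arrays on the Affymetrix RAE230A rat array. The labels used here give no dose, route, dosing schedule, vehicle, strain or age, and do not say whether an array is 1 animal or a pool. The p-values therefore measure only the spread between these arrays, which may be technical.

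The uterus is a wall of smooth muscle around a stroma lined with epithelium. Estrogen enters these cells and binds its nuclear receptor, which regulates transcription at estrogen response elements and through other DNA-bound factors. In the immature uterus an early wave of transcription factor genes and fluid uptake are known to come before protein synthesis, tissue growth and epithelial DNA synthesis. The arrays carried the markers of this tissue. Smooth muscle Acta2 (intensity 1786 to 2748) and Myh11 (1588 to 2648), stromal Dcn (1408 to 2885) and epithelial Krt8 (311 to 744) had a value on all 20 arrays, as did the estrogen receptor gene Esr1 (45.2 to 93.7). All values are from whole uterus, in which a smaller share of cells of a type and less RNA per cell cannot be told apart.

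The deposited values are linear intensities per probe set, with blanks. They were put on the scale log2(intensity + 30.4), with an offset of 30.4 taken at the 10th percentile of the deposited values, so that differences of dim genes are understated. A gene was tested with at least 3 of 5 values in each of the 4 groups. A moderated two-sided limma test with Benjamini-Hochberg adjustment over all 6650 genes tested was used, and a gene is called at an adjusted p under 0.05. Each standard error (SE) is that of the fit, and n is 5 arrays per group unless another number is given.

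The promoters of 3 of 4 genes examined are shown, as the effect on 2 of them shrank and that on the third grew, and all 3 held matches to the motifs marked for them. The fourth was Psat1, whose effect also grew and which held no such match. They are RefSeq sequences on the GRCr8 assembly, from 250 bases before to 50 bases after the gene start, and motifs were searched on both strands of 33465 such windows. Egr1 (chr18:26736828-26737127, plus strand) and Nr4a1 (chr7:134259888-134260187, plus strand) encode transcription factors made early after a stimulus. Creld2 (chr7:121789134-121789433, plus strand) encodes a protein of the endoplasmic reticulum. The capitals mark CArG boxes, which serum response factor binds, and the cyclic AMP response element core TGACG in Egr1, that core and the Egr site GCGGGGGCG in Nr4a1, and CCAAT and CCACG in Creld2.
Egr1: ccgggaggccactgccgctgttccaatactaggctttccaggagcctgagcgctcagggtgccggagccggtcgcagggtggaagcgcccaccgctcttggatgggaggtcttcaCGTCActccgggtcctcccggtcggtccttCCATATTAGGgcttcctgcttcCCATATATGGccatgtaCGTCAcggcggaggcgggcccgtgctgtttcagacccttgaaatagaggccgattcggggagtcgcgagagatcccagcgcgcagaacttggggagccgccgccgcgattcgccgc
Nr4a1: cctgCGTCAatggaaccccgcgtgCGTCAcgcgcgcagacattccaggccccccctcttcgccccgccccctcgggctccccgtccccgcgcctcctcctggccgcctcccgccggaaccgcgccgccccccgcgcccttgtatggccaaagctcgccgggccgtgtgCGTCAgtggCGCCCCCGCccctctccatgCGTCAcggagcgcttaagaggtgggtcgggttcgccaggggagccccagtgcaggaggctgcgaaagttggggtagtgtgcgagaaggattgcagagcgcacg
Creld2: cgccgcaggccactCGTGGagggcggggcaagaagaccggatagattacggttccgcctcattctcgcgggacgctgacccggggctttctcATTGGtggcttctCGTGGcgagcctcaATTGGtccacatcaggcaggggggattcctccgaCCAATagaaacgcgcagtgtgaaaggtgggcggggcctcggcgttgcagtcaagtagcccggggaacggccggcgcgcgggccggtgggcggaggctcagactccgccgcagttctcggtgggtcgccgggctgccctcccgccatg
Egr1 held 2 CArG boxes, whose first bases lay at -105 and -83 from the gene start, and 2 TGACG cores at -135 and -66. A CArG box was in 1.64% of all promoters and TGACG in 21.2%. The core at -135 overlapped a GACGTG match, a motif in 6.31% of promoters. Nr4a1 held 4 TGACG cores, at -246, -226, -82 and -53, and 1 Egr site at -73, which overlapped a GC box (GGGCGG) and was in 2.73% of promoters. Creld2 held 3 CCAAT matches, at -158, -131 and -97, and 2 CCACG matches, at -236 and -145, read on the minus strand for all but the CCAAT at -97. Those at -145 and -131 together make a whole endoplasmic reticulum stress element, in which a fixed gap separates CCAAT from CCACG. That element was in 22 promoters, or 0.0657%, while CCAAT alone was in 37.5% and CCACG alone in 31.6%. None of the 3 windows shown held the palindromic estrogen response element, which was in 9 promoters (0.0269%), or its core AGGTCA (16.2%). The Psat1 promoter was searched for the C/EBP-Atf response element core, which was in 3.98% of promoters and not in that window. It held CCAAT at -155 and -125, CCACG at -28 and a GC box at -65. The letters are a description of these windows and no measurement of binding.

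The effect of EE was higher at 8 h than at 4 h for 21 of 38 proteasome genes, 18 of 42 genes of the mitochondrial ribosome and import, and 16 of 53 genes of folding in the endoplasmic reticulum. It became lower for 10 of 18 immediate-early transcription factors and 12 of 17 feedback inhibitors of growth signalling. In all, 1306 of 6650 genes were called for the change of the effect, which is 19.6%. The effect was higher at 8 h than at 4 h for 618 genes (9.29%) and lower for 688 genes (10.3%). At an unadjusted p under 0.05 the number was 2176. Most changes were small, since 8 genes were at least 2-fold higher and 27 at least 2-fold lower. The median size of a called change was 0.41, against a median residual SD of 0.13 between arrays of a group. The median change over all genes tested was 0.01.

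Most called genes moved further in the direction they already had, or moved for the first time, rather than returning to control. The patterns were named from the calls at each time. Of the 618 genes with a higher effect at 8 h, 241 were raised at both times and more so at 8 h, and 230 were called as raised at 8 h alone. A further 39 were lowered at both times but less so at 8 h, 82 were called as lowered at 4 h alone, 21 had effects of opposite sign called at both times, and 5 had no effect called at either time. Of the 688 genes with a lower effect at 8 h, 361 were lowered at both times and more so at 8 h, and 131 were called as lowered at 8 h alone. Another 65 were raised at both times but less so at 8 h, 97 were called as raised at 4 h alone, 28 had effects of opposite sign called at both times and 6 had none called. The effect itself was called for 3894 genes at 4 h (58.6%) and for 4340 at 8 h (65.3%). Effects of at least 2-fold numbered 208 at 4 h and 422 at 8 h, and the median effect size was 0.24 at 4 h and 0.29 at 8 h.

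**Figure D1:**
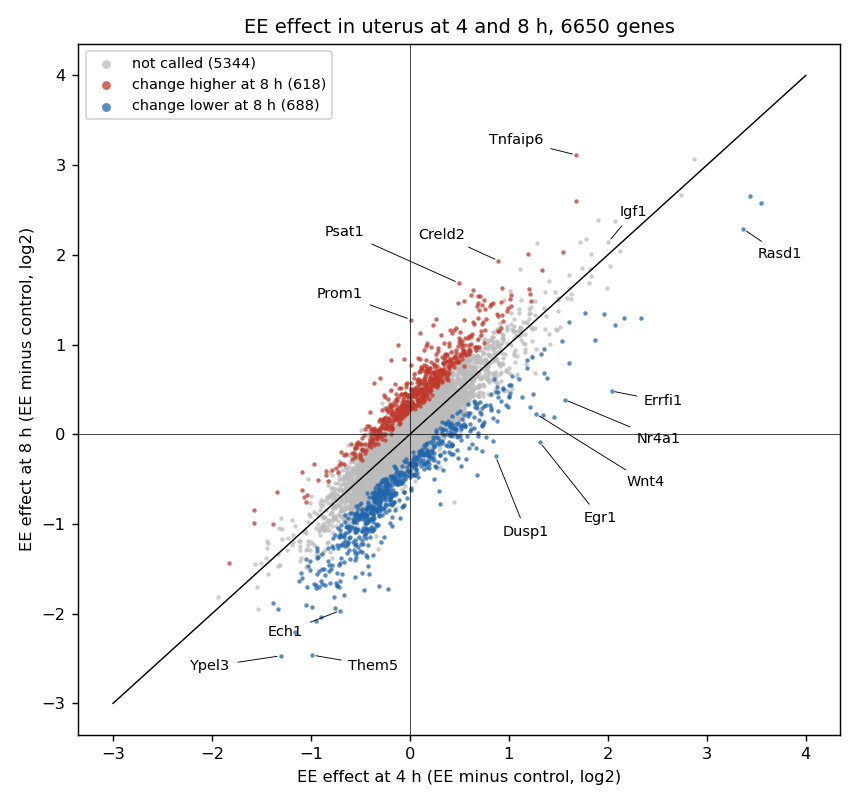
The EE effect (EE minus control, log2) at 8 h on the vertical axis is set against that at 4 h on the horizontal axis for 6650 genes, with the diagonal of equal effect. Genes called for a higher effect at 8 h (618, red) lie above the diagonal and those called lower (688, blue) below it. Errfi1, Nr4a1 and Egr1 lie to the right, with effects at 8 h of 0.48, 0.39 and -0.09.

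The change lay mainly in the EE-treated arrays. EE-treated uterus at 8 h differed from EE-treated uterus at 4 h for 2438 genes (36.7%), while control uterus differed between the same times for 161 (2.42%). Of the 1306 called genes, 1166 differed over time in the EE arrays in the direction of the change. In 35 the control arrays differed over time in the opposite direction, 4 met both conditions, and 109 met neither. The EE and control time differences are parts of the change and share its arrays, so these counts locate the change and do not test it again.

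**Figure D2:**
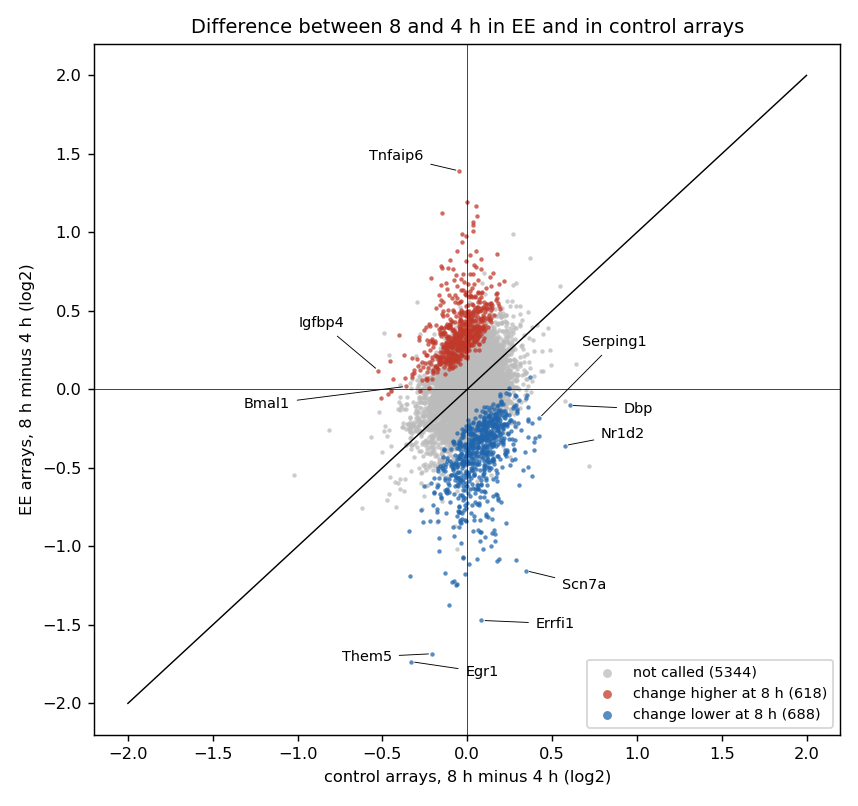
The difference between 8 and 4 h (log2) in EE arrays, vertical, is set against that in control arrays, horizontal, for the same 6650 genes and with the same colours. The called genes spread mainly along the vertical axis, while Nr1d2, Dbp, Serping1, Igfbp4 and Bmal1 lie to the sides.

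The scale chosen for the arrays affected how the calls split by direction. Higher changes were 47.3% of the calls as given above. With each array centred on its median they were 38.4% (503 higher, 808 lower), and after quantile normalization 31.1% (374 higher, 827 lower). The median change over all genes was then -0.02 and -0.04. No gene called as given above was called in the opposite direction under either scaling.

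At 8 h, the EE arrays also stood apart from their controls in 2 quality measures. Blank probe sets made up 38.2% ± 0.974 (SD, n = 5) of the EE arrays and 34.5% ± 0.836 (SD, n = 5) of the control arrays at 8 h, and the groups did not overlap (exact two-sided permutation test, p = 0.00794, adjusted p = 0.0317 over 8 tests, the smallest p that 5 against 5 allow being 0.00794). At 4 h the blank shares were 37.3% and 37.5% (exact adjusted p = 0.897). Actb control probe sets, whose 3′ minus 5′ difference is a sign of RNA integrity and labelling, gave 0.22 ± 0.09 in EE and 0.50 ± 0.11 in control arrays at 8 h (SD, n = 5, exact adjusted p = 0.0317) and 0.41 ± 0.15 and 0.61 ± 0.17 at 4 h (exact adjusted p = 0.175). The part of these differences in the results was not tested directly. With both measures as covariates, an alternative chosen after seeing the data, 1006 genes were called (513 higher, 493 lower), and 838 of the 1306 calls were among them in the same direction.

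**Figure D3:**
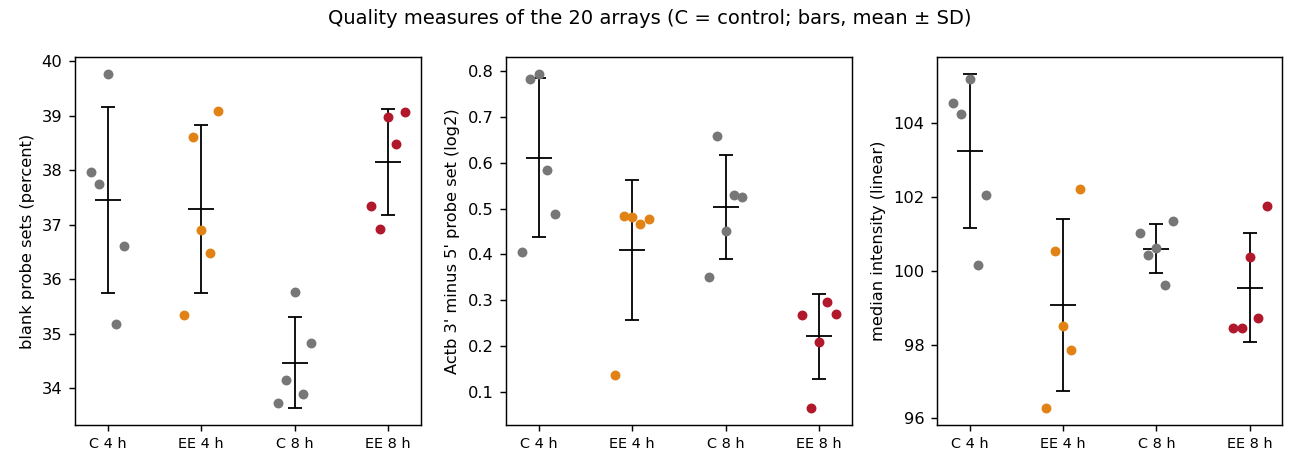
Each point is 1 of the 20 arrays, with the mean and SD of its group, for the percent of blank probe sets, the Actb 3′ minus 5′ difference (log2) and the median intensity, on axes that do not start at 0. The control arrays at 8 h have the fewest blanks, and the EE arrays at 8 h the smallest Actb difference.

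The immediate-early transcription factors, which cells make without new protein after a stimulus, had effects that were in part lower at 8 h. Of 18 tested, 10 had a lower effect at 8 h and 0 a higher one, with a median change of -0.48. Egr1, a zinc finger factor, had intensities of 260, 228, 202, 251 and 225 in control and 731, 526, 572, 456 and 926 in EE uterus at 4 h. At 8 h its intensities were 242, 181, 146, 186 and 151 in control and 126, 142, 143, 157 and 304 in EE uterus. All EE arrays were thus above all controls at 4 h, and 4 of 5 were below most controls at 8 h, with array 35 above them all. The effect went from 1.31 ± 0.15 (SE) to -0.09 ± 0.15, a change of -1.40 ± 0.21 (limma adjusted p = 7.71e-07). Nr4a1, an orphan nuclear receptor, had 50.2, 55.6, 63.7, 54.4 and 50.2 in control and 274, 145, 222, 211 and 279 in EE uterus at 4 h, and 56.5, 52.6, 53.6, 46.2 and 47.5 in control and 80.6, 94.2, 65.2, 59.7 and 85.2 in EE uterus at 8 h. Its EE arrays stayed above control at both times but by less at 8 h, with an effect of 1.56 that became 0.39 (change -1.18 ± 0.16, limma adjusted p = 6.96e-08).

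Other early factors lost part of their effect or turned. Cebpb, a leucine zipper factor, kept an effect of 1.30 after 2.34 at 4 h (change -1.04 ± 0.17, limma adjusted p = 5.59e-06). Jun, a subunit of the AP-1 factor, went from 0.48 to -0.26 (change -0.74 ± 0.14), and its other 2 probe sets gave -0.65 and -0.58, both called. Ier3 (change -0.72), Egr2 (-0.46, with 4 control values at each time), Ier2 (-0.44) and Klf2 (-0.83) had a lower effect at 8 h as well. Klf9, a hormone-responsive Krüppel-like factor, was of another kind, since its effect was -0.48 at 4 h and -1.31 at 8 h (change -0.83 ± 0.12). The 8 members that missed the threshold included Junb (-0.49, with 3 control values at 4 h), Klf6 (-0.37) and Myc, a transcription factor of cell growth, whose effect was 1.16 at 4 h and 0.95 at 8 h (change -0.21 ± 0.13, limma adjusted p = 0.248).

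Fos, the partner of Jun in AP-1, had a call that few arrays carried. Its control intensities were 16.4, 20.6, 16.6 and 13.7 at 4 h and 19.3, 16.7 and 7.77 at 8 h, the other control arrays being blank. In EE uterus they were 252, 168, 141, 122 and 183 at 4 h and 80, 45.9, 61.9, 58.9 and 146 at 8 h. The EE groups overlapped, as array 35 at 8 h was above 2 arrays at 4 h. The effect was 2.08 at 4 h and 1.22 at 8 h (change -0.86 ± 0.30, limma adjusted p = 0.0340 with 4 control values at 4 h and 3 at 8 h). The call was lost without any 1 of 5 arrays (control 18 and EE 19 at 4 h, EE 32, 33 and 34 at 8 h), up to an adjusted p of 0.0839, and with an offset of 1 (0.171), quantile normalization (0.0515) or blanks set to 0 (0.0873), and without EE arrays 20 and 24 at 4 h together (0.0635).

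Inhibitors that act back on growth signalling changed with the factors. Of 17 tested, 12 had a lower effect at 8 h and 0 a higher one, with a median change of -0.43. Errfi1, which binds and inhibits the epidermal growth factor receptor, had 150, 118, 87.5, 155 and 155 in control and 767, 645, 610, 650 and 507 in EE uterus at 4 h. At 8 h it had 144, 148, 119, 149 and 144 in control and 267, 222, 148, 210 and 208 in EE uterus. The EE groups of the 2 times did not overlap, and at 8 h array 33 alone lay among the controls. The effect fell from 2.04 to 0.48 (change -1.56 ± 0.18, limma adjusted p = 1.89e-09). Dusp1, a phosphatase that switches off MAP kinases, had 62.3, 61.4, 59.4, 58.9 and 73.7 in control and 181, 127, 123, 140 and 135 in EE uterus at 4 h, and 80.3, 64.6, 67, 74.4 and 61.7 in control and 56.3, 51, 56.7, 55.8 and 49 in EE uterus at 8 h. All EE arrays were above control at 4 h and all were below it at 8 h, and the effect turned from 0.87 to -0.25 (change -1.11 ± 0.13, limma adjusted p = 2.49e-09). Its other probe set gave a smaller change, -0.38 (limma adjusted p = 0.0465). The effects of that probe set were 0.48 at 4 h and 0.10 at 8 h, so that it did not turn in sign.

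Of these 17 inhibitors, 11 were called as raised at 4 h and 7 at 8 h. Over all 6650 genes tested, 1627 were called as raised at 4 h and 1933 at 8 h. Rasd1, a Ras-related protein, had an effect of 3.37 at 4 h and 2.29 at 8 h (change -1.08 ± 0.15), with 4 control values at 4 h. Gadd45g, a growth arrest gene, went from 3.55 to 2.58 (change -0.97 ± 0.17) and its relative Gadd45a from 1.39 to 0.62 (-0.76 ± 0.16). Zfp36, which promotes decay of cytokine messenger RNAs, went from 1.24 to 0.45 (-0.79 ± 0.12), and these 4 genes were all still called as raised at 8 h. Dusp5 went from 0.74 to 0.12 (-0.62) and was not called as raised at 8 h. Spry1 and Btg1 differed in sign, since their effects were below 0 at both times, with changes of -0.39 and -0.26. The 5 members not called were Dusp6, Spry2, Rgs2, Rgs4 and Sgk1, with changes between -0.40 and 0.21. A list of glucocorticoid-responsive genes had 6 of 13 lower and 0 higher with a median of -0.40, but 5 of those 6 (Errfi1, Dusp1, Klf9, Gadd45a and Nfkbia) also stand in the lists above.

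Known estrogen-responsive genes of the uterus were divided. Of 21 tested, 6 had a lower effect at 8 h and 0 a higher one, with a median change of -0.11. Igf1, the growth factor that carries much of the proliferative action of estrogen, had 376, 481, 358, 329 and 370 in control and 1600, 1483, 1661, 1629 and 1720 in EE uterus at 4 h, and 380, 288, 353, 299 and 390 in control and 1537, 1536, 1644, 1535 and 1793 in EE uterus at 8 h. The EE arrays of both times overlapped and lay far above the controls. Its effect was 2.01 at 4 h and 2.15 at 8 h, a change of 0.14 ± 0.13 (limma adjusted p = 0.489). Effects that also missed the threshold were those of the progesterone receptor gene Pgr (1.27 and 0.95, change -0.32 ± 0.16, limma adjusted p = 0.146) and of S100g, a calcium-binding protein (2.88 and 3.07, change 0.19 ± 0.20). The receptor gene Esr1 itself had effects of 0.12 and -0.08, neither called (change -0.20 ± 0.15).

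The 6 estrogen-responsive genes with a lower effect at 8 h included 4 whose raised effect shrank (Wnt4, Inhbb, Vegfa and Fos) and 2 that were lowered more (Igfbp3 and Aqp5). Wnt4, a Wnt ligand of uterine development, was raised by 1.28 at 4 h and had an effect of 0.23 at 8 h (change -1.05 ± 0.23, limma adjusted p = 0.00046). Inhbb, the activin beta B subunit, stayed high but fell from 3.44 to 2.66 (change -0.78 ± 0.17, limma adjusted p = 0.000723, with 4 control values at 4 h). Vegfa, the vascular growth and permeability factor, went from 0.81 to 0.29 (change -0.53 ± 0.17, limma adjusted p = 0.0236). That call was lost without any 1 of 5 arrays (up to an adjusted p of 0.0727), and it had an adjusted p of 0.113 with the quality covariates and 0.0602 without EE arrays 20 and 24 at 4 h. Igfbp3, a carrier that holds Igf1 outside cells, was lowered further, from -0.71 to -1.70 (change -0.99 ± 0.18), while Fos and the water channel gene Aqp5 (-0.07 to -0.80) completed the 6. Ccnd1, a G1 cyclin, narrowly missed (change 0.30 ± 0.11, limma adjusted p = 0.0557).

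Some genes known to respond early or strongly had too few values for the test. Kap, first known as an androgen-regulated kidney protein, had 282, 298, 158, 462 and 171 in EE arrays at 4 h and 797, 1129, 1286, 815 and 1399 at 8 h, with no overlap, and 1 and 4 control values. Complement C3 had 29.5, 57.2, 51.9 and 26.8 on 4 EE arrays at 4 h and 59.7, 58.1, 156, 55.1 and 119 at 8 h, with overlap. Plk2, a kinase induced early, had 981, 872, 592, 534 and 1189 at 4 h and 519, 628, 545, 529 and 679 at 8 h, also with overlap. Atf3, a stress-induced factor, had 81.7, 49.2, 56.7, 50.4 and 66.1 at 4 h and was blank on all but 1 EE array at 8 h.

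**Figure D4:**
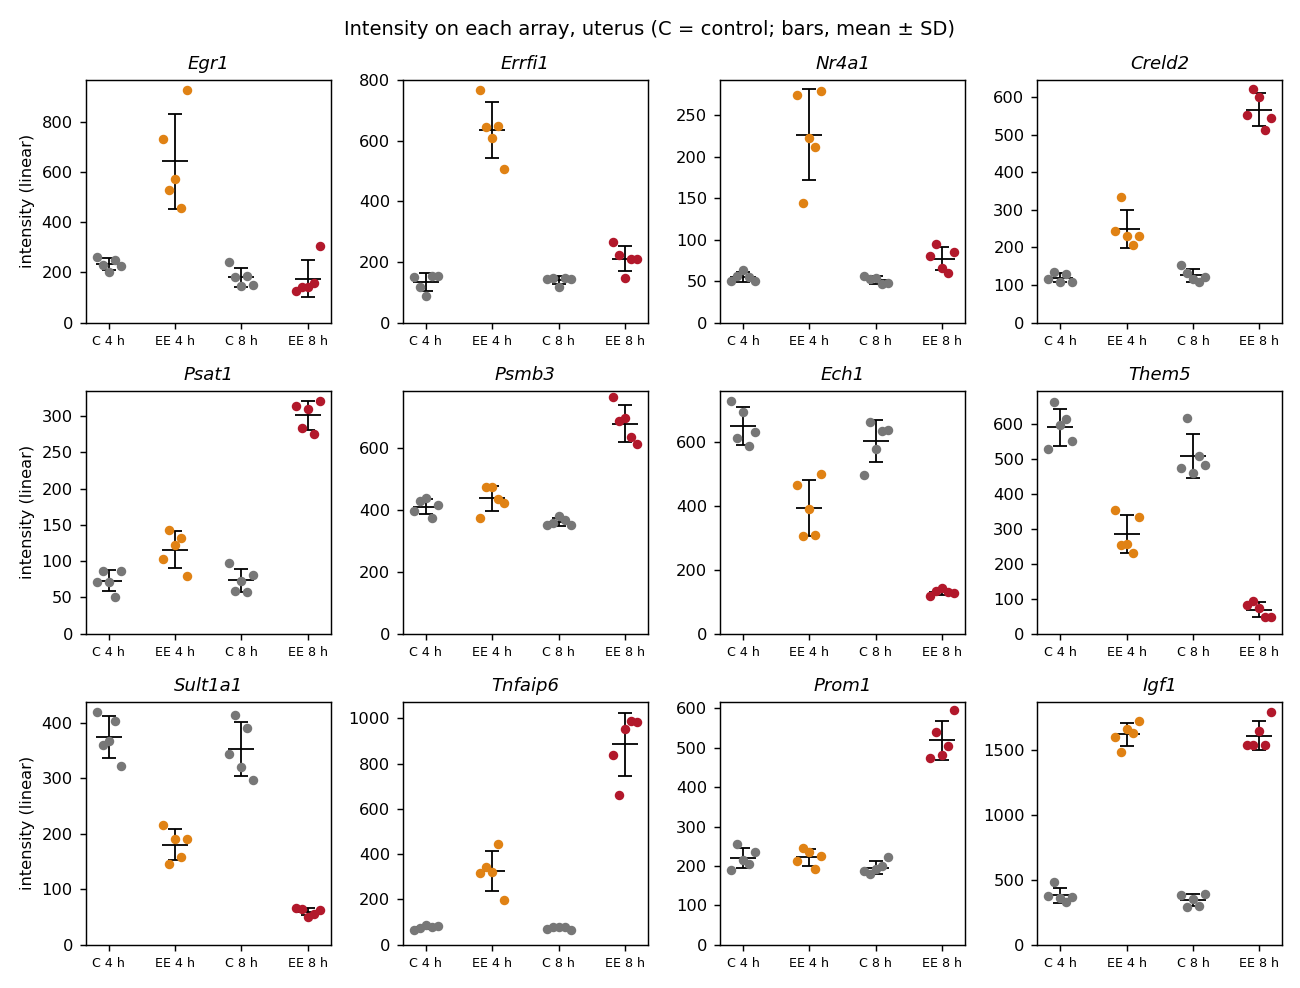
Points are single arrays of the 4 groups for 12 genes (linear intensity), with the mean and SD of each group as bars. Egr1, Errfi1 and Nr4a1 are high in EE uterus at 4 h, Creld2, Psat1, Psmb3, Tnfaip6 and Prom1 are highest and Ech1, Them5 and Sult1a1 lowest in EE uterus at 8 h, and the Igf1 arrays of EE uterus overlap between the times.

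The genes with a higher effect at 8 h included the machinery of protein breakdown. Of 38 tested proteasome subunits and assembly factors, 21 had a higher effect at 8 h and 0 a lower one, which is 55.3% against 9.29% of all genes. Their median change was 0.33, with median effects of 0.28 at 4 h and 0.64 at 8 h. Psmb3, a subunit of the catalytic core, had 397, 428, 440, 375 and 415 in control and 375, 475, 476, 436 and 424 in EE uterus at 4 h. At 8 h it had 353, 358, 382, 368 and 350 in control and 764, 687, 696, 636 and 614 in EE uterus. EE and control arrays overlapped at 4 h and were apart at 8 h (effects 0.08 and 0.85, change 0.77 ± 0.12, limma adjusted p = 1.42e-06). Psmc5, an ATPase of the regulatory cap, rose from 0.68 to 1.43 (change 0.75 ± 0.14), the core subunit Psmb7 from 0.16 to 0.76 (0.59 ± 0.09) and the cap subunit Psmd13 from 0.46 to 0.94 (0.48 ± 0.10). After quantile normalization 12 of the 38 were higher, and with the quality covariates 25.

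**Figure D5:**
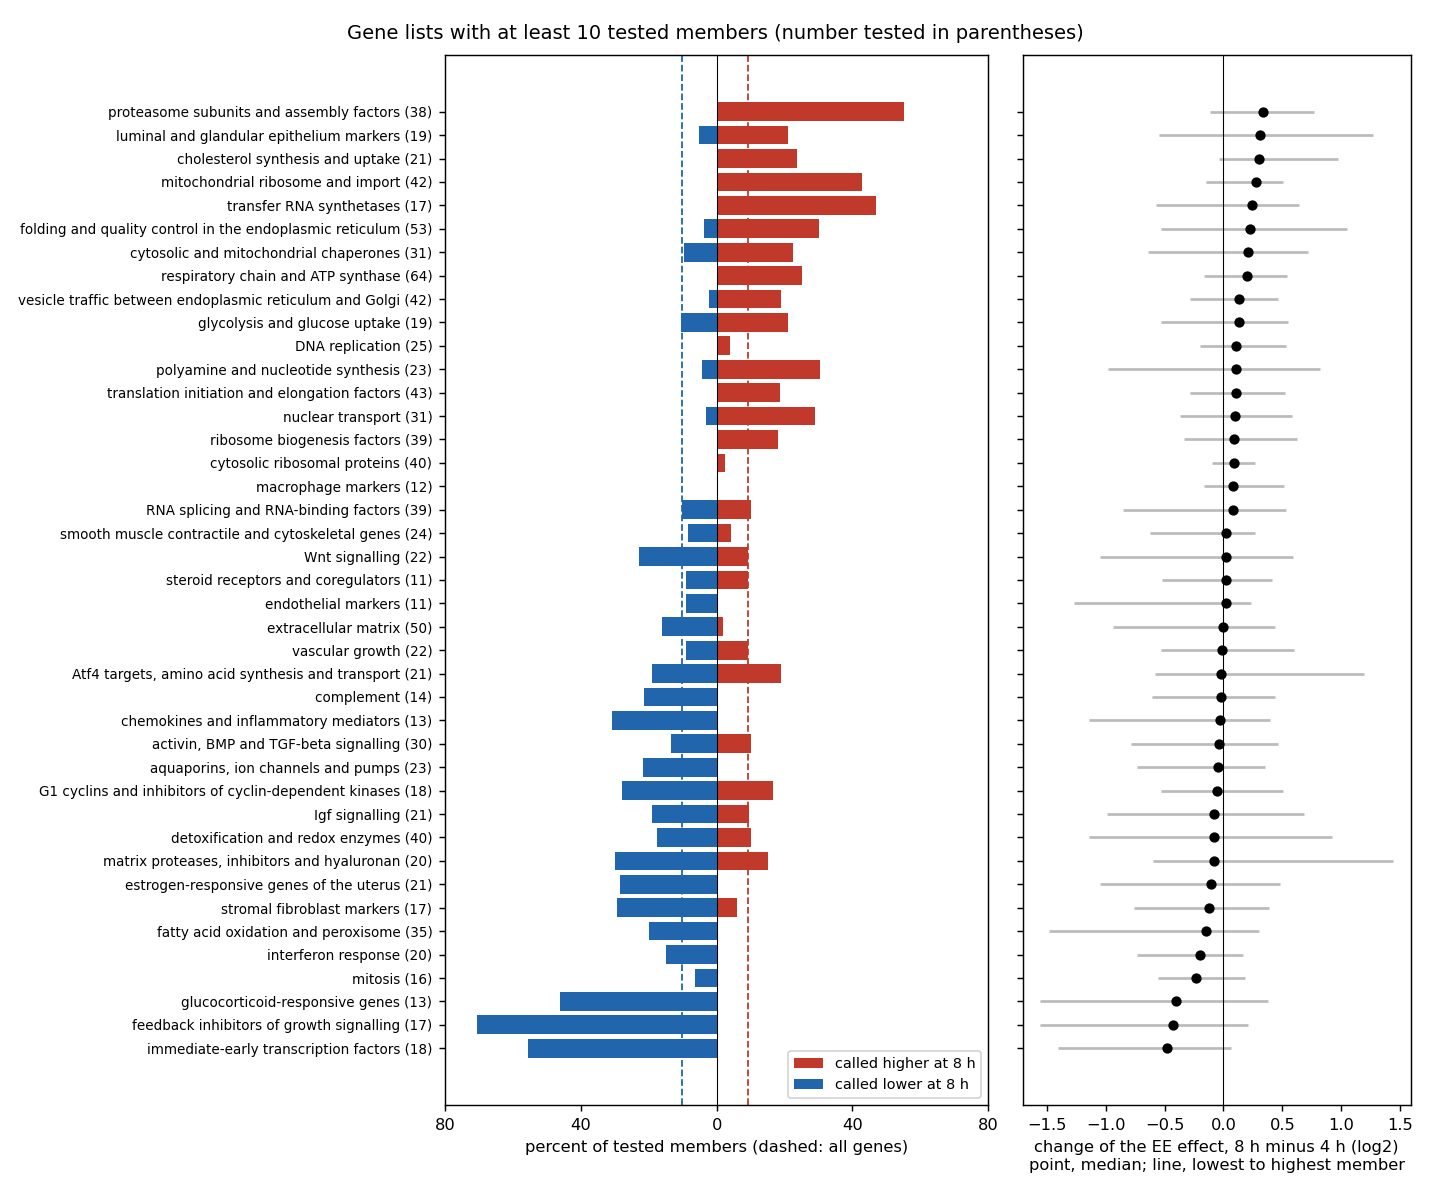
Each row is a gene list with at least 10 tested members. Bars give the percent of tested members called higher (red) or lower (blue), dashed lines the same over all genes (9.29% and 10.3%), and points the median change of the effect (log2) with a line from the lowest to the highest member. The proteasome list reaches 55.3% higher and the feedback list 70.6% lower.

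Mitochondrial genes with a higher effect at 8 h changed by small steps. Among ribosomal proteins and import proteins of the mitochondrion, 18 of 42 had a higher effect at 8 h and 0 a lower one (median change 0.27). Examples were the ribosomal proteins Mrpl17 (0.35 to 0.85, change 0.51 ± 0.09, limma adjusted p = 5.17e-05), Mrps18b (0.52 to 1.0) and Mrpl4 (0.02 to 0.49) and the import chaperone Timm13 (0.01 to 0.44). In the respiratory chain and ATP synthase, 16 of 64 were higher and 0 lower (median change 0.20), among them the complex I subunit Ndufb9 (0.10 to 0.60, change 0.50 ± 0.10), the cytochrome oxidase subunits Cox5a (-0.19 to 0.32) and Cox7b (-0.03 to 0.35), and Uqcrq of complex III (0.21 to 0.68). That list was sensitive to the scale: 5 were higher and 1 lower after quantile normalization, and 6 higher and 1 lower with the quality covariates. The call of Cox7b was lost under both (adjusted p = 0.0548 and 0.0533).

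Among genes of folding and transport of new proteins in the endoplasmic reticulum, some had a higher effect at 8 h, while the change of its best-known chaperone was not called. Of 53 genes tested, 16 had a higher effect at 8 h and 2 a lower one (median change 0.23). Creld2, whose promoter is shown above, had 117, 133, 109, 129 and 107 in control and 242, 335, 231, 207 and 230 in EE uterus at 4 h. At 8 h it had 152, 132, 115, 108 and 122 in control and 552, 620, 600, 511 and 545 in EE uterus. Its EE arrays were above control at 4 h and higher again at 8 h, without overlap (effects 0.89 and 1.94, change 1.05 ± 0.18, limma adjusted p = 2.09e-05). Hyou1, a chaperone (0.93 to 1.63, change 0.70), Sdf2l1 (0.41 to 1.17, change 0.76), the disulfide isomerase Pdia4 (0.16 to 0.83, change 0.67), the co-chaperone Dnajb11 (0.50 to 1.07, change 0.57) and the signal peptidase subunits Spcs3 (change 0.43) and Spcs1 (change 0.31) were also higher. Hspa5, the chaperone BiP, had effects of 1.47 and 1.59 (change 0.12 ± 0.18, limma adjusted p = 0.696). Herpud1, a degradation factor of the same organelle, turned from 0.14 to -0.38 (change -0.53), and Sec62 was the other lower member (change -0.27).

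Vesicle traffic and cytosolic folding followed in part. Of 42 genes of traffic between endoplasmic reticulum and Golgi, 8 were higher and 1 lower (median change 0.13), including the coat subunit Cope (0.37 to 0.80), the cargo receptor Lman2 (0.20 to 0.63) and Tmed2 (0.40 to 0.73), whose other probe set gave -0.04 and was not called. After quantile normalization 2 of the 42 were higher, and Tmed2 lost its call (adjusted p = 0.0847). With the quality covariates Cope (0.0508) and Lman2 (0.0772) lost theirs. Of 31 chaperones of cytosol and mitochondrion, 7 were higher and 3 lower (median change 0.20). The higher share was 22.6% against 9.29% of all genes, and the lower share, 9.68%, was near the 10.3% of all genes. The higher ones were led by Cct8 (0.45 to 1.16, change 0.72 ± 0.12) and Cct5 (0.46 to 0.87), subunits of the chaperonin that folds actin and tubulin, and by the mitochondrial Hspe1 (0.82 to 1.46). The 3 lower ones were the Hsp40 genes Dnajb1 (0.73 to 0.09, change -0.64 ± 0.11), Dnaja1 (-0.38) and Dnajb4 (-0.37).

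Several genes that supply translation had a higher effect at 8 h, while ribosomal proteins had few calls. Of 17 transfer RNA synthetases, 8 were higher and 0 lower (median change 0.24), including Hars1 for histidine (0.11 to 0.75, change 0.64 ± 0.12) and Sars1 for serine (0.39 to 0.81). After quantile normalization 3 were higher and 1 lower. Translation factors had 8 of 43 higher and 0 lower (median change 0.11), with Eif3b going from 1.03 to 1.55 and the translation repressor gene Eif4ebp1 from -0.06 to 0.41, and 2 higher and 1 lower after quantile normalization, where Eif3b had an adjusted p of 0.0562. Ribosome biogenesis factors, already raised at 4 h with a median effect of 0.89, had 7 of 39 higher and 0 lower (median change 0.09), such as Nhp2 (0.84 to 1.47), Mrto4 (1.54 to 2.03) and Ebna1bp2 (1.01 to 1.51). With blanks set to 0 the call of Mrto4 was lost (adjusted p = 0.200). Cytosolic ribosomal proteins had 1 of 40 higher (0 with each array centred), and 21 of the 40 differed between 8 and 4 h in the control arrays, with a median of -0.24 there and -0.16 in the EE arrays. Nuclear transport genes had 9 of 31 higher and 1 lower, including the importins Ipo4 (0.50 to 1.05) and Ipo13 (0.18 to 0.69) and the pore subunit Nup205 (0.65 to 1.23), and 5 higher after quantile normalization.

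Some genes of amino acid and nucleotide synthesis had a higher effect at 8 h. Psat1, which makes phosphoserine for serine synthesis, had 71.2, 85.8, 71.8, 50.5 and 86.7 in control and 102, 143, 123, 132 and 79.6 in EE uterus at 4 h. Its intensities at 8 h were 97.2, 59.4, 72.8, 57.2 and 80.3 in control and 314, 284, 310, 276 and 321 in EE uterus. The EE arrays overlapped control at 4 h and lay far above it at 8 h (effects 0.49 and 1.69, change 1.19 ± 0.19, limma adjusted p = 5.78e-06). Phgdh, the enzyme before it, went from -0.19 to 0.49 (change 0.68 ± 0.14), and Asns, asparagine synthetase, from 0.71 to 1.54 (change 0.83 ± 0.14). Across the list of Atf4 targets and amino acid genes, 4 of 21 were higher and 4 lower with a median of -0.02, so that the list as a whole had no direction. The lower ones were Chac1, a glutathione-degrading enzyme (1.0 to 0.42), Ddit4, Slc38a1 and Slc38a2, and Atf4 itself had effects of 1.23 and 1.20 (change -0.02 ± 0.08).

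Mthfd1, an enzyme of folate metabolism, had 92.6, 93.5, 93.0, 84.3 and 91.3 in control and 96.9, 139, 121, 134 and 92.8 in EE uterus at 4 h, and 101, 78.3, 88.7, 105 and 97.3 in control and 282, 283, 246, 269 and 279 in EE uterus at 8 h. It overlapped control at 4 h and was clear of it at 8 h (effects 0.27 and 1.28, change 1.01 ± 0.14). Polyamine and nucleotide synthesis genes had 7 of 23 higher and 1 lower. Among them were Nme1, a nucleoside diphosphate kinase (0.16 to 0.98, change 0.82 ± 0.14), the purine enzyme Atic (0.76 to 1.39) and Cad, which starts pyrimidine synthesis (0.01 to 0.77). The other probe set of Cad gave 0.06 and was not called. Ctps2, a CTP synthetase, was the lower one (-0.37 to -1.35, change -0.98 ± 0.11), and its other probe set gave -0.31, also called.

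A minority of the sterol and sugar metabolism genes were called. Of 21 genes of cholesterol synthesis and uptake, 5 were higher and 0 lower, with a median change of 0.30. Fdps, which makes farnesyl diphosphate, had 172, 144, 159, 151 and 172 in control and 214, 281, 297, 318 and 225 in EE uterus at 4 h, and 184, 133, 166, 125 and 176 in control and 605, 784, 478, 458 and 423 in EE uterus at 8 h. The EE groups were apart from control at both times and from each other (effects 0.64 and 1.61, change 0.97 ± 0.22, limma adjusted p = 0.00106). Acaca of fatty acid synthesis (change 0.50, other probe set 0.30 and not called), Lss (0.42), Dhcr7 (0.41) and the regulator Srebf2 (0.47) were the other higher ones, and Dhcr7 lost its call with the quality covariates (adjusted p = 0.0618). Sqle missed the threshold (change 0.72 ± 0.31, limma adjusted p = 0.0915). In glycolysis 4 of 19 were higher (21.1% against 9.29% of all genes) and 2 lower (10.5%, near the 10.3% of all genes). Eno1 (0.24 to 0.79), Pgk1 (0.20 to 0.73), Ldha (0.73 to 1.23) and Tpi1 were higher, and Pfkm, the muscle phosphofructokinase, was lower (-0.56 to -1.09). The other 13 were not called, and with the quality covariates 3 were higher and 1 lower.

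Other genes with the largest higher changes had no common list. Tnfaip6, a hyaluronan-binding protein of matrix expansion, had 66.6, 75.3, 89.3, 77 and 80.9 in control and 316, 344, 321, 444 and 196 in EE uterus at 4 h. At 8 h it had 71.6, 79.4, 78.1, 79 and 63.7 in control and 836, 662, 951, 989 and 984 in EE uterus. EE and control did not overlap at either time, nor did the EE arrays between times, and the effect went from 1.68 to 3.11 (change 1.44 ± 0.27, limma adjusted p = 5.67e-05). Gja1, the gap junction protein connexin 43, had 346, 323, 327, 332 and 349 in control and 400, 552, 345, 426 and 310 in EE uterus at 4 h, and 323, 367, 344, 320 and 314 in control and 781, 790, 793, 843 and 863 in EE uterus at 8 h. Groups overlapped at 4 h and not at 8 h (effects 0.23 and 1.21, change 0.98 ± 0.15). Gpx2, a glutathione peroxidase of epithelia, went from 1.68 to 2.60 (change 0.92 ± 0.22).

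The remaining genes of this group were Ola1, an ATPase (effects 0.10 and 1.13, change 1.03 ± 0.09, limma adjusted p = 2.26e-13), Rbm14, an RNA-binding coactivator (-0.12 and 0.99, change 1.12 ± 0.16), Hsd17b12, an enzyme of long-chain fatty acid elongation (-0.19 and 0.83, change 1.02 ± 0.16), Ppil3, a cyclophilin (0.49 and 1.46, change 0.98 ± 0.13), and Ppa1, a pyrophosphatase (0.55 and 1.49, change 0.94 ± 0.20). Ola1 intensities were 306, 305, 336, 298 and 327 in control and 327, 405, 333, 344 and 291 in EE uterus at 4 h. They were 344, 334, 319, 300 and 316 in control and 766, 687, 748, 816 and 691 in EE uterus at 8 h. The shape for Ola1, Rbm14 and Hsd17b12 was the same, with no called effect at 4 h and EE arrays all above control at 8 h.

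Some genes of fatty acid oxidation were lowered more at 8 h than at 4 h, and most of the list was not called for a change. Of 35 genes of fatty acid oxidation and the peroxisome, 7 had a lower effect at 8 h and 0 a higher one (20% lower against 10.3% of all genes), with a median change of -0.14. The other 28 were not called. With an offset of 1 or of 100, 1 of the 35 was called higher and 7 lower. Ehhadh, a peroxisomal enzyme of fatty acid oxidation, could not be tested. It had values on all 5 EE arrays at 8 h (mean 72.7) and was blank on the arrays of the other groups. Ech1, which isomerizes unsaturated fatty acids for oxidation, had 730, 613, 694, 587 and 633 in control and 465, 306, 390, 310 and 500 in EE uterus at 4 h. It had 498, 663, 579, 634 and 638 in control and 118, 134, 143, 132 and 128 in EE uterus at 8 h. EE was below control at both times and lower at 8 h on every array (effects -0.70 and -1.97, change -1.26 ± 0.15, limma adjusted p = 1.89e-09). Them5, a mitochondrial acyl-CoA thioesterase, had 529, 664, 597, 613 and 550 in control and 354, 255, 258, 230 and 333 in EE uterus at 4 h, and 474, 618, 460, 509 and 482 in control and 80.6, 94.8, 73.2, 47.2 and 47.4 in EE uterus at 8 h. Again no EE array at 8 h reached the level of an EE array at 4 h (effects -0.99 and -2.46, change -1.48 ± 0.23). Eci1 (-0.51 to -1.30), Hadh (-0.52 to -0.94) and the peroxisomal Hsd17b4 (-0.28 to -0.64) were also lower. Of 11 fat cell markers on the array, 4 were tested and 0 called, with a median change of 0.02. Lpl, Pck1 and Dgat2 had a value on all 20 arrays, and Ucp1 was blank on all. Plin1, Plin4, Fabp4, Pparg, Cfd, Lipe and Slc2a4 were blank on some. The sum of Lpl, Pck1 and Dgat2 was 686 to 926 in control and 446 to 551 in EE uterus at 4 h, and 572 to 912 in control and 326 to 448 in EE uterus at 8 h. EE was below control at both times, and the part of fat cells in these results was not tested.

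Of 40 detoxification and redox enzymes, 7 were lower (17.5% against 10.3% of all genes) and 4 higher (10% against 9.29%). The other 29 were not called, the median change was -0.08, and the share of higher ones was near that of all genes. Gpx2 was one of the higher. Sult1a1, a sulfotransferase that conjugates phenols and estrogens, had 419, 361, 367, 403 and 322 in control and 217, 146, 191, 158 and 191 in EE uterus at 4 h, and 345, 414, 320, 391 and 298 in control and 66.5, 64.1, 50.6, 55 and 62.4 in EE uterus at 8 h. The 3 levels, control, EE at 4 h and EE at 8 h, did not overlap (effects -0.94 and -2.08, change -1.14 ± 0.23, limma adjusted p = 0.000153). Mgst1 (-0.90 to -1.64) and Gstk1 (0.01 to -0.62), both glutathione transferases, were lower too. With the quality covariates 4 of the 40 were lower.

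Others of the genes lowered most stood in no common list. Ypel3, a growth suppressor, had 576, 499, 560, 524 and 509 in control and 222, 166, 185, 175 and 250 in EE uterus at 4 h, and 440, 632, 533, 546 and 506 in control and 70.1, 56.9, 82.7, 69.9 and 74.0 in EE uterus at 8 h. Bnip3l, a receptor for removal of mitochondria, had effects of -0.76 and -1.94 (change -1.18 ± 0.13, limma adjusted p = 3.90e-10), and its other probe set gave -1.47. For both genes the EE arrays at 8 h were all below those at 4 h, and the effect on Ypel3 went from -1.31 to -2.47. Ank2, a membrane skeleton adaptor, had effects of -0.46 and -1.73 (change -1.27 ± 0.14). Rtn1, a neuronal reticulon, had 181, 171, 288, 90.0 and 124 in control and 148, 60.2, 150, 123 and 158 in EE uterus at 4 h, and 237, 205, 293, 162 and 145 in control and 36.2, 46.6, 45.6, 42.2 and 38.1 in EE uterus at 8 h. Of its EE arrays 4 lay within the control range at 4 h, and all lay below it at 8 h (change -1.38 ± 0.31, limma adjusted p = 0.000714).

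Scn7a, an atypical sodium channel gene, had the largest SE of the change among the genes named. Its intensities were 131, 162, 240, 115 and 95.1 in control and 161, 89.1, 56.6, 141 and 176 in EE uterus at 4 h. It had 337, 76.8, 247, 225 and 152 in control and 51, 61.4, 15.1, 36.2 and 26.4 in EE uterus at 8 h. The EE arrays of the 2 times overlapped by 1 array each, and the change was -1.5 ± 0.45 (limma adjusted p = 0.0116, and 0.0636 with the quality covariates). Channels, pumps and aquaporins had 5 of 23 lower and 0 higher, including the sodium pump regulator Fxyd1 (-0.32 to -1.01) and the bicarbonate transporter Slc4a4 (-0.08 to -0.81), and 3 lower with the quality covariates.

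Some matrix and stromal genes were lowered further. Of 50 extracellular matrix genes, 8 were lower (16% against 10.3% of all genes) and 1 higher, with a median change of 0.00. After quantile normalization 13 were lower and 0 higher, and with the quality covariates 5 were lower. Lox, which crosslinks collagen, went from -0.74 to -1.55 (change -0.82 ± 0.15), its other probe set giving -0.91, and the protease gene Ctsk from -0.44 to -1.37 (change -0.94 ± 0.14). The proteoglycans Dcn (-0.32 to -0.68) and Lum (-0.67 to -1.21) and the matrix protein Matn2 (-0.20 to -0.71) were lower as well. Among proteases and inhibitors, 6 of 20 were lower and 3 higher, the lower ones including Timp2 (change -0.47, other probe set -0.27 and not called), Cst3 (-0.51) and Plat (-0.52), and 4 were lower and 1 higher with the quality covariates. Of 17 stromal fibroblast markers 5 were lower and 1, Tcf21 (-1.39 to -1.0), higher. With the quality covariates 2 of the 17 were lower, and the calls of Lum (adjusted p = 0.0788) and Matn2 (0.0644) were lost. Tcf21 lost its call after quantile normalization (0.0553) and without EE arrays 20 and 24 at 4 h (0.0908), which had the largest residual spread.

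The summed intensity of the stromal markers moved with these genes and also differed by time in the controls. Over 16 of 19 markers with a value on all 20 arrays, the sum was 20249 to 21936 in control and 15584 to 17611 in EE uterus at 4 h, and 16551 to 18798 in control and 12430 to 13533 in EE uterus at 8 h. EE arrays were below control at each time without overlap, and no stromal marker was blank on all arrays. The part of a lower stromal share in the matrix results was not tested.

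Ligands and receptors of other pathways were mixed. In Wnt signalling 5 of 22 were lower and 2 higher: the antagonists Sfrp1 (-0.54 to -1.06), Sfrp2 and Dkk3 (-0.85 to -1.57), the target Axin2 (0.75 to 0.14) and the ligand Wnt4 were lower, and the receptors Fzd1 (-1.57 to -0.98) and Fzd2 were lowered less at 8 h. Of 21 Igf signalling genes 4 were lower and 2 higher, and of 30 genes of activin, BMP and TGF-beta signalling 4 were lower and 3 higher. With the quality covariates these were 3 and 0, and 2 and 1. The TGF-beta shares (10% higher, 13.3% lower) were near those of all genes (9.29% and 10.3%). So were those of the vascular growth genes, with 2 of 22 called in each direction. Among them, Ramp2 (-0.02 to 0.57) and the protease Plau (0.03 to 0.45, with 4 EE values at 4 h) had a higher effect at 8 h, and Vegfa and Cxcl12 a lower one. Other probe sets of Cxcl12 gave -0.20 and -0.06 and were not called, and that of Plau gave 0.25 (limma adjusted p = 0.0572). The call of Plau was lost after quantile normalization (adjusted p = 0.0523) and with the covariates (0.0924). Cxcl12 lost its call without EE arrays 20 and 24 at 4 h (0.170).

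Endothelial and inflammatory genes included several that were raised at 4 h alone. Cldn5, a tight junction protein of endothelium, had 424, 354, 329, 510 and 289 in control and 1138, 858, 1067, 949 and 1496 in EE uterus at 4 h, and 446, 437, 417, 438 and 416 in control and 199, 281, 1047, 621 and 778 in EE uterus at 8 h. EE arrays at 8 h scattered on both sides of control, so that the change of -1.27 ± 0.34 (limma adjusted p = 0.00448) came with overlap. It was the only one of 11 endothelial markers called. The sum of 11 endothelial markers with a value on all 20 arrays, Cldn5 among them, was 1615 to 1999 in control and 2195 to 3128 in EE uterus at 4 h, and 1759 to 1954 in control and 1541 to 2411 in EE uterus at 8 h. Its part in these results was not tested. Selp, the adhesion receptor P-selectin, went from 0.77 to -0.03 (change -0.80 ± 0.12, with 4 control values at 4 h), and Cxcl10, an interferon-induced chemokine, from 0.68 to -0.46 (change -1.14 ± 0.25). Control array 25 at 8 h had 195 for Cxcl10 where the other 4 had 42.3 to 54.3. Of 20 interferon response genes 3 were lower (15% against 10.3% of all genes) and 0 higher, with a list median of -0.20. The 3 were Mx1 (-0.06 to -0.79), Oas1a (-0.06 to -0.65) and Irf7 (0.65 to 0.06). Complement had 3 of 14 lower (21.4%), with a median of -0.02. With so few calls, neither list is read as changed as a whole. None of 12 macrophage markers was called, and their sum over 11 markers ranged from 1859 to 2717 in controls and from 2026 to 3016 in EE arrays of both times. Of 12 lymphocyte markers, 3 had a value on all 20 arrays, and Cd2, Cd8a, Cd79b, Ptprc and Gzmb were blank on all 20. The rest, such as Cd4 and Il7r, were blank on some arrays. The lymphocyte list had 3 tested members and 0 called.

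Epithelial markers with a higher effect at 8 h were of both kinds, 2 that were raised (Prom1 and Krt8) and 2 that were lowered less (Ocln and Msx1). Of 19 markers of luminal and glandular epithelium, 4 were higher and 1 lower, with a median change of 0.31. Prom1, a protein of apical membrane protrusions, had 190, 257, 215, 206 and 236 in control and 212, 245, 236, 192 and 224 in EE uterus at 4 h, and 186, 179, 193, 200 and 222 in control and 475, 539, 481, 506 and 596 in EE uterus at 8 h. Groups overlapped fully at 4 h and were apart at 8 h (effects 0.01 and 1.28, change 1.27 ± 0.16, limma adjusted p = 2.83e-08). Krt8, a keratin of simple epithelia, had 311, 363, 446, 407 and 358 in control and 415, 576, 340, 386 and 338 in EE uterus at 4 h, and 338, 370, 317, 473 and 342 in control and 631, 744, 685, 641 and 678 in EE uterus at 8 h (change 0.74 ± 0.17). The tight junction gene Ocln (-0.92 to -0.52) and the homeobox gene Msx1 (-1.34 to -0.64) were lowered less at 8 h, and Cldn4 was the lower one (change -0.55). The summed intensity of 15 epithelial markers with a value on all 20 arrays was 4197 to 5538 in control and 3972 to 6317 in EE uterus at 4 h, and 3569 to 4775 in control and 5124 to 5536 in EE uterus at 8 h. EE and control thus overlapped at 4 h and not at 8 h. The EE range at 8 h lay within that at 4 h, and the control range was lower at 8 h than at 4 h. The part of a different epithelial share in these results was not tested. Of 13 stratified epithelium markers 4 were tested and 0 called, with a median change of -0.35 (-0.95 to 0.85). The sum of the 2 with a value on all 20 arrays was 91.6 to 574 in control and 296 to 666 in EE uterus at 4 h. At 8 h it was 90.7 to 395 in control and 588 to 950.3 in EE uterus.

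Proliferation genes had few calls at these times. Of 25 DNA replication genes 1 was higher, the helicase subunit gene Mcm5 (change 0.53 ± 0.18, limma adjusted p = 0.0361, with 4 EE values at 4 h), and its call was lost with the quality covariates, quantile normalization, an offset of 100, blanks set to 0, or without EE arrays 20 and 24 at 4 h. Of 16 mitosis genes 1 was lower, Cdc25b (-0.20 to -0.67, with 4 EE values at 4 h and 3 at 8 h), whose call was lost with blanks set to 0 (adjusted p = 0.218). The median change over the mitosis list was -0.23, and EE had lowered 2 of the 16 at 4 h and 9 at 8 h. Over all 6650 genes tested, 2267 were called as lowered at 4 h and 2407 at 8 h. Without EE arrays 20 and 24 at 4 h, 3 of the 14 mitosis genes then tested were lower, with a median of -0.44. Mki67, a proliferation marker, had effects of -0.28 and -0.68 (change -0.40 ± 0.28, limma adjusted p = 0.334). Among G1 cyclins and inhibitors 5 of 18 were lower, such as Ccng2 (-1.01 to -1.52), and 3 higher, such as Ccng1 (-0.45 to 0.06), against 1 and 1 with the quality covariates, where Ccng2 had an adjusted p of 0.0885.

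For some genes the change lay partly or mainly in the control arrays. Nr1d2, a repressor of the circadian clock, had 170, 180, 164, 240 and 200 in control and 108, 113, 95.5, 104 and 102 in EE uterus at 4 h, and 248, 316, 322, 295 and 310 in control and 62.5, 73.9, 79.1, 92.7 and 68.4 in EE uterus at 8 h. Control arrays rose by 0.58 between the times while EE arrays fell by 0.36, both called, for a change of -0.93 ± 0.16 (limma adjusted p = 2.26e-05). Of its 2 other probe sets, 1 gave -0.94 and was called and 1 gave -0.22 and was not. Dbp, a clock-controlled factor, had 109, 111, 79.9, 130 and 91.1 in control and 37.8, 38.1, 34.8, 32.5 and 47.5 in EE uterus at 4 h, and 116, 203, 203, 189 and 167 in control and 24.0, 41.3, 32.4, 31.4 and 38.9 in EE uterus at 8 h. The EE intensities of Dbp lay near the offset of 30.4 at both times, where differences are understated and a further fall would show little. Its controls rose by 0.60 and its EE arrays overlapped between times (-0.10, not called), for a change of -0.71 ± 0.19. Bmal1 was the opposite, with controls that fell by 0.36, EE arrays at 0.02 and a change of 0.38 ± 0.09 (4 control values at 8 h). For Nr1d1 both treatments were higher at 8 h (0.49 in control, 0.25 in EE), and the change of -0.24 ± 0.13 was not called. Nr1d1 was also dim in EE arrays, with log2 means of 5.66 at 4 h and 5.91 at 8 h against 6.96 for the median gene. The complement inhibitor gene Serping1 (control 0.42) and the carrier gene Igfbp4 (control -0.52) also differed by time in the controls, with no call in the EE arrays, and Igfbp4 had an adjusted p of 0.107 with the quality covariates.

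A few of the 9030 genes with a value crossed the border between blank and measured, for which no fold is given. Blank shares differed at 8 h, with 38.2% in EE and 34.5% in control arrays, and the part of this in the counts was not tested. Some of these genes, such as S100a8, were dim, with means near or below the offset of 30.4. Nr0b2, a corepressor, and Socs1, an inhibitor of cytokine signalling, had values on all 5 EE arrays at 4 h (means 49.2 and 51.8) and on none of the other 15. There were 7 genes with values on all EE arrays at 8 h alone, including the nuclear pore gene Nup107 (78.4 ± 20.8, SD, n = 5), Adpgk (135 ± 16.9) and S100a8 (26.7 ± 8.94). Conversely 13 genes were blank on all EE arrays at 8 h and had values on all other 15, such as Vtn, Gamt and Calcoco1. Between the EE groups, 22 genes had values on all arrays at 4 h and none at 8 h, among them Relb and Tgfa, and 12 the reverse, among them Mvk of sterol synthesis. Between the control groups the counts were 8 with values at 8 h alone and 0 at 4 h alone.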

How the data were processed

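Total RNA of uterus was hybridised to 1 Affymetrix RAE230A array per sample, per the labels' protocols. The authors deposited linear intensity values for 15923 probe sets on 100 arrays, of which 37.2% of cells are blank. How the authors summarised and scaled the arrays, and why cells are blank, is not stated in the labels. The number of arrays limits the precision.

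Probe sets with 1 gene in the platform annotation (12783) were kept, 312 with several genes and 2771 with none were left unnamed, and each of 9030 genes was taken from its probe set with the highest mean log2 intensity. Other probe sets of a named gene are given where they differ. Intensities, deposited on a linear scale, were transformed here to log2(value + 30.4). Group means over all 70 uterus arrays (14 groups) were fitted with blanks left out and limma 3.58.1 variance moderation in R 4.3.3 (version 1.17.8 of data.table). Contrasts were (EE minus control at 8 h) minus (EE minus control at 4 h), its 2 effects, and 8 minus 4 h in each treatment. Of 6650 genes tested, 5967 had all values. The procedure was tested on simulated data. Array quality was compared with exact permutation tests.

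Named genes were, among called genes whose highest group mean lay above that of the median gene, the 12 largest changes in each direction, with up to 4 members of each of 49 lists by adjusted p and a fixed set. Any further gene was named after its values were seen. The members and lists were chosen with earlier results of these data known, so lists are described by counts and medians without a set test. Alternatives were other offsets, value filters, scalings, treatment of blanks, probe sets and left-out arrays. Quality covariates, and leaving out 2 EE arrays at 4 h together, were added after seeing the data.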

Additional observations from a re-analysis of the deposited data

Results flagged for a closer look

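The effect of EE differed between 4 and 8 h for 1306 genes by the limma test of the difference itself. Among the genes of largest change, the effect was higher at 8 h for Tnfaip6 (1.44), Prom1 (1.27), Psat1 (1.19), Rbm14 (1.12), Creld2 (1.05), Ola1 (1.03), Hsd17b12 (1.02), Mthfd1 (1.01), Gja1 (0.98), Ppil3 (0.98), Fdps (0.97) and Ppa1 (0.94), all log2. It was lower for Errfi1 (-1.56), Scn7a (-1.5), Them5 (-1.48), Egr1 (-1.40), Rtn1 (-1.38), Ank2 (-1.27), Cldn5 (-1.27), Ech1 (-1.26), Bnip3l (-1.18), Nr4a1 (-1.18), Ypel3 (-1.16) and Sult1a1 (-1.14).

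Single arrays lay far from the other arrays of their group by Dixon's test in 9 of 139 groups of 4 or 5 values tested, or 6.47%, where chance gives about 1 in 20. In EE uterus at 8 h, array 35 had 304 for Egr1 and array 31 had 78.5 for Ank2. In EE uterus at 4 h, array 20 had 335 for Creld2 and 123 for Ank2, and array 19 had an Actb 3′ minus 5′ difference of 0.14. Control array 17 at 4 h had 139 for Hsd17b12 and 84.3 for Mthfd1, and control array 18 had 73.7 for Dusp1. Control array 28 at 8 h had 119 for Errfi1.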

How the results depend on the processing

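No paired analysis was possible because the groups compared share no array numbers in the labels. The number of called genes was 1306 and lay between 1121 and 1366 when 1 array was left out (533 to 646 higher, 588 to 720 lower), the fewest without EE array 19 and the most without EE array 20 at 4 h. With only genes above the median intensity tested, 451 were lower, a count from fewer genes than the 688. In that setting 815 of the 1306 called genes were tested, and all 815 kept their call and direction. After quantile normalization 374 were higher. With arrays 20 and 24 of EE uterus at 4 h left out together, 1282 were called. With blanks set to 0, 9 of the 1306 called genes had the opposite sign, and none of these 9 was called. Over the largest changes and the fixed set of genes, 589 of 604 values under an alternative kept their direction and side of the threshold, 9 were no longer called (Fos, Vegfa and Scn7a) and 6 became called (Ccnd1 and Sqle). For left-out arrays this tally holds only the lowest and the highest estimate of each gene. Over every array left out in turn, Fos and Vegfa each lost their call 5 times. Ccnd1 became called 4 times and Sqle 1 time. Of the 127 called genes in the wider set of named genes, 114 were called with the quality covariates and 120 after quantile normalization. Dim genes are limited by blanks and the offset, and 3 values per group were the least tested.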
